A study of Mus musculus with 12 samples.

Results

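The Kruppel-like factors described here were *Klf2*, *Klf3*, *Klf4*, *Klf6*, *Klf7*, *Klf9*, *Klf10*, *Klf11* and *Klf13*, measured in mouse peritoneal macrophages. Members were taken by name from the KLF family and found through the RefSeq transcript of each array probe, which gave 1 probe for each of the 9 genes among 20862 genes tested. Adherent macrophages of C57BL/6 mice, labelled WT and 8 weeks old, formed 3 groups of 4 arrays: IL4 (10 ng/ml) together with 50 µM of emodin, an anthraquinone found in rhubarb; IL4 (10 ng/ml) alone; and vehicle control. Each group held 2 arrays labelled male, numbered 3 and 4, and 2 labelled female, numbered 1 and 2. All cells had been kept overnight in serum-free medium before treatment. The labels give a treatment of 6 h in one field and an overnight stimulation in another, and do not say whether mice were pooled. They name biological replicates but not separate mice or cultures, and p-values here therefore cover the spread among these arrays, some of which may be technical.

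Kruppel-like factors are transcription factors that bind GC-rich and CACCC-type promoter elements through closely similar C-terminal zinc fingers, while their N-terminal parts differ and recruit either activators or repressors. They fall into a group that mainly activates (here *Klf2*, *Klf4*, *Klf6* and *Klf7*), a group that recruits the corepressor CtBP (here *Klf3*), and a group that recruits the corepressor Sin3 (here *Klf9*, *Klf10*, *Klf11* and *Klf13*). In mouse macrophages KLF4 is known to be induced by IL4 and to work with STAT6 on alternative activation genes, and KLF2 is known to restrain NF-κB-driven inflammatory genes. The question was how these factors stood after IL4 and how far emodin changed that.

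The promoters of *Klf4* and *Klf9* are shown because these were the members that rose with IL4 and were lower with emodin than with IL4 alone. They are RefSeq sequences (GRCm38.p6), 250 bases before to 50 bases after the start site, on the strand of the gene, at chr4:55532426-55532725 (minus strand) and chr19:23140976-23141275 (plus strand). Capitals mark the KLF and SP box CCNCNCCC in *Klf4* and the STAT-type motif TTCNNNGAA in *Klf9*, both searched on both strands.
Klf4 promoter: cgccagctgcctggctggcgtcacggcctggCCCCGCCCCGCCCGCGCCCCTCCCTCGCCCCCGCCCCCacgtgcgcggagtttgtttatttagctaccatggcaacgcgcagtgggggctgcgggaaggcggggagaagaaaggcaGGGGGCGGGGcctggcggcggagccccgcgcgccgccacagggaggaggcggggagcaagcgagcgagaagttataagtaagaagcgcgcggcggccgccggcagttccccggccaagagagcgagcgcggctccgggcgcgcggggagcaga
Klf9 promoter: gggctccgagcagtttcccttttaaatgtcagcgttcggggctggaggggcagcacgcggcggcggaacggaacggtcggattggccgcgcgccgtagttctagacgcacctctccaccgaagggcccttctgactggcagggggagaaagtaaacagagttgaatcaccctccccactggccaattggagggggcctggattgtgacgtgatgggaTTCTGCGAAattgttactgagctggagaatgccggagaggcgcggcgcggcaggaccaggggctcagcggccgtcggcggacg
The *Klf4* window held 9 matches to CCNCNCCC, several of them overlapping, and the *Klf9* window none. In 8 member promoters found in the table, CCNCNCCC was present in 7, against 49.5% of all 32851 promoters of that length. TTCNNNGAA lay in the *Klf9* promoter alone of the 8, beginning 33 bases before the start site, against 8.3% of all promoters, and the form with a spacer 1 base longer, which STAT6 prefers, lay in 0 of 8, against 6.95%. The AP-1 motif TGANTCA, also searched but not marked, likewise lay in *Klf9* alone of the 8, against 7.81%. The CRE motif TGACGTCA lay in 0 of 8, against 1.79%. A match is a description of the letters and not of binding.

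Values are log2 signal minus the 75th percentile of the array, so each difference is relative to that percentile, and a level is compared between groups for the same probe or the same list of probes. The 75th percentile was 447.1 to 516 on emodin arrays, 761 to 812.8 on IL4 arrays and 632.9 to 809.6 on control arrays. Signal lay well above background for 47.2% to 49.5%, 51% to 53.1% and 49.7% to 50.8% of probes. IL4 and control arrays shared slide 1 and emodin arrays lay on slide 2, which means that emodin cannot be told apart from the slide, nor IL4 from slide row 1, which held all IL4 arrays and no other. Of 11 macrophage markers on the array, 9 lay well above background on all 4 emodin arrays, and 10 on all 4 IL4 and all 4 control arrays, with *Cd163* below background throughout. Their summed signal, which the brightest of them carry, was 667 to 790 times the 75th percentile with emodin, 721 to 815 with IL4 and 658 to 670 in controls. With emodin against IL4, 4 of 10 tested macrophage markers were lower and 2 higher (all 10 lower with spike-in scaling). In this comparison 65.9% of all genes were called, 39.4% higher and 26.5% lower. The higher ones were *Lyz2* (0.32, limma adjusted p = 0.0167) and *Adgre1* (0.18, adjusted p = 0.0483), neither called higher with quantile scaling. The lower ones were *Fcgr1*, an Fc receptor (-2.89 ± 0.17, limma adjusted p = 5.07e-08), *Icam2* (-1.59 ± 0.11, adjusted p = 2.49e-07), *Mertk* (-0.57 ± 0.18, adjusted p = 0.0166) and *Csf1r*, the M-CSF receptor (-0.55 ± 0.11, adjusted p = 0.0012). The part of this in the member differences was not tested. The summed signal of 7 neutrophil markers was 36.6 to 59 with emodin, 19.2 to 30.3 with IL4 and 26.7 to 39.8 in controls, with *Ngp* below background throughout. Of 5 tested neutrophil markers 2 were higher with emodin than with IL4 and none lower (none and 2 with spike-in scaling). *Elane* (1.26) and *Camp* (0.61) were higher, while *S100a9* (0.61), *S100a8* (-0.29) and *Ltf* (-0.81) were not called. The design text speaks of peripheral blood cells, and the sample labels of peritoneal macrophages.

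IL4 against control asks which of these factors the cytokine alone moves. *Klf4* rose 2.89-fold and *Klf9* 2.17-fold with IL4, and *Klf2* fell 1.44-fold, while the other 6 members were not called. These 3 calls among 9 members stand against 17.5% of all tested genes called in this comparison. By direction, 2 members were higher (8.98% of all genes) and 1 lower (8.56%). The median log2 difference was 0.30 over the members and -0.03 over all genes. These counts come from the fit without pairing. With IL4 and control arrays paired by replicate number, *Klf3* and *Klf13* were also called higher, which made 4 higher and 1 lower, where 25.4% of all genes were called.

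IL4 plus emodin against IL4 asks which of these levels the compound changes while IL4 is present. With emodin, 7 of the 9 members fell and none rose, with *Klf7* and *Klf10* not called. The falls were led by *Klf3* (3.83-fold), *Klf4* (3.75-fold), *Klf11* (2.17-fold) and *Klf13* (2.1-fold). The count includes *Klf11*, which was well above background on 1 of 4 emodin arrays. *Klf11* was not called with normexp background correction, and a filter on signal in all 12 arrays left 6 of 8 members lower. The calls covered 65.9% of all genes (39.4% higher and 26.5% lower). No member was higher at an unadjusted p below 0.05 in limma either. On arrays alone, the emodin and IL4 values did not overlap for 7 members, against 60.4% of all genes. The members' median log2 difference was -0.88, with 0.17 over all genes.

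IL4 plus emodin against control asks where the factors stood relative to untreated cells. Of the 9 members 7 were lower than in controls, 1 (*Klf9*) was higher and 1 (*Klf7*) was not called, where 62.9% of all genes were called, 37.3% higher and 25.6% lower. The 7 include dim *Klf11*, not called with normexp, which left 6 lower. A filter on signal in all 12 arrays left 6 of 8 lower. The *Klf9* call was lost with quantile scaling and turned lower with spike-in scaling. The arrays of the groups did not overlap for 6 members, all lower with emodin, against 54.3% of all genes. The median log2 difference was -0.51 over the members and 0.15 over all genes. The 3 comparisons share arrays, so their values are given side by side and no agreement between them is read as a result.

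**Figure D1:**
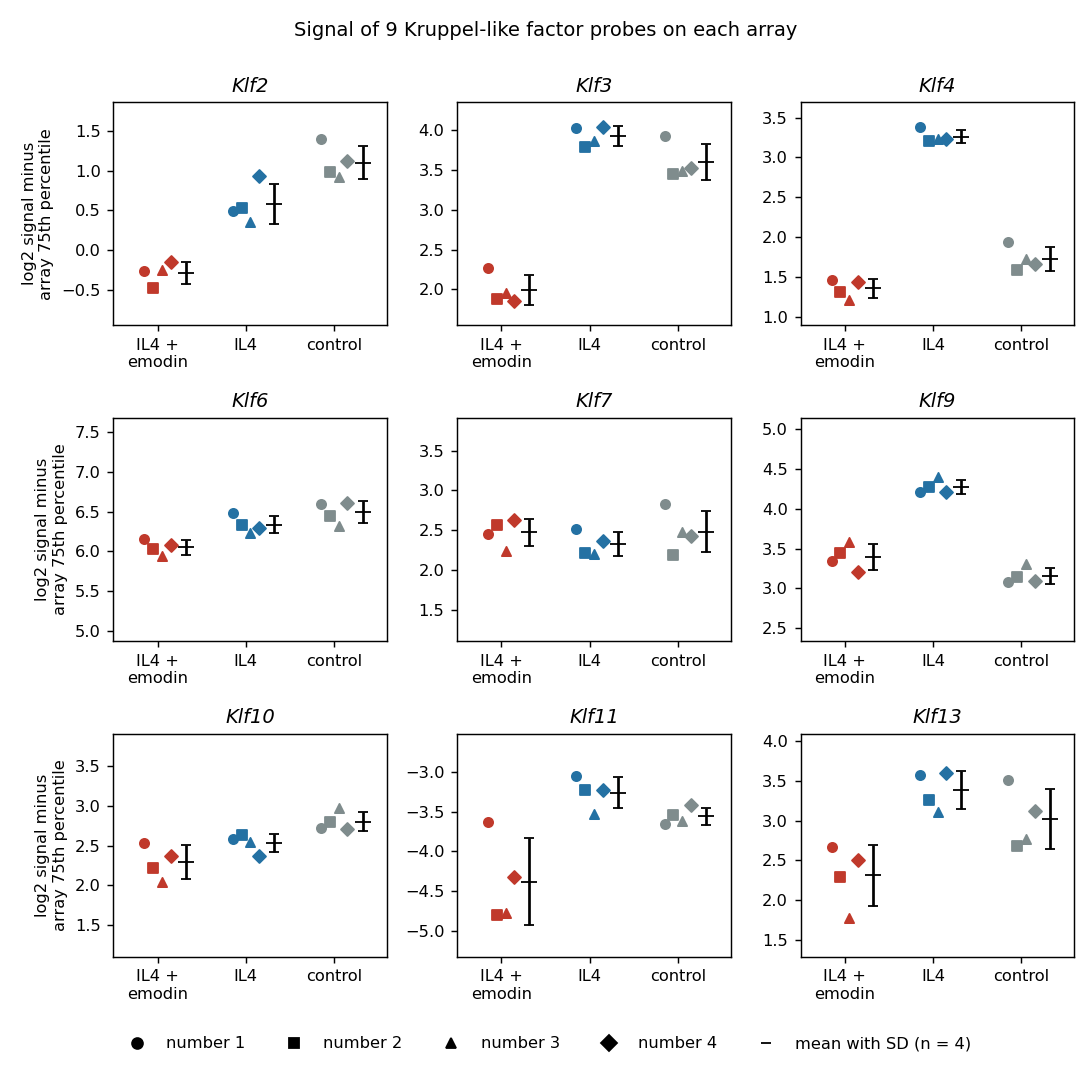
Log2 signal minus the 75th percentile of the array (vertical axes, each spanning the same height in log2 units) for the 9 Kruppel-like factor probes on 4 arrays each of IL4 plus emodin, IL4 and control, with the mean and SD in black. *Klf4* and *Klf9* stand highest on the IL4 arrays, and *Klf3* stands at 1.86 to 2.27 on the emodin arrays, against 3.78 to 4.04 with IL4 and 3.45 to 3.93 in controls.

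Among the activating group, *Klf4* showed the clearest pattern across the 3 groups. *Klf4*, which acts with STAT6 in mouse macrophages and is also one of the pluripotency reprogramming factors, measured 1.46, 1.30, 1.21 and 1.44 with IL4 plus emodin, 3.38, 3.20, 3.23 and 3.23 with IL4, and 1.94, 1.59, 1.72 and 1.67 in controls. All IL4 arrays stood above all others, and all emodin arrays stood below all controls. IL4 raised it by a log2 difference of 1.53 ± 0.09 over control (SE, n = 4 per group; limma adjusted p = 4.56e-07). Emodin lowered it by -1.91 ± 0.09 relative to IL4 alone (adjusted p = 1.2e-08), and the emodin arrays were lower than control by -0.38 ± 0.09 (adjusted p = 0.00387). Each *Klf4* difference kept its sign and its call under every alternative run.

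*Klf2*, which keeps T cells quiescent and restrains inflammatory genes in mouse myeloid cells, was lower in both treated groups than in controls. It measured -0.26, -0.47, -0.24 and -0.15 with IL4 plus emodin, 0.50, 0.53, 0.36 and 0.94 with IL4, and 1.39, 0.98, 0.92 and 1.12 in controls. The emodin arrays lay below all others, while 1 IL4 array, number 4, reached into the control range. IL4 lowered *Klf2* by -0.52 ± 0.14 relative to control (SE, n = 4 per group; limma adjusted p = 0.0211), emodin lowered it by -0.86 ± 0.14 relative to IL4 (adjusted p = 0.000162), and emodin arrays were lower than control by -1.39 ± 0.14 (adjusted p = 3.85e-06). The call with IL4 was lost without control array 1 (adjusted p = 0.0501) and without IL4 arrays 1, 2 or 3 (0.0584, 0.0553 and 0.0646), and with spike-in scaling (-0.44, adjusted p = 0.15).

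Lymphocytes also express *Klf2*, and the summed B cell signal was lower on the emodin arrays. The summed signal of 7 B cell markers was 0.605 to 0.833 times the 75th percentile with emodin, 1.39 to 2.37 with IL4 and 1.23 to 2.58 in controls. *Cd79b* fell by 2.17 ± 0.25 with emodin relative to IL4 (limma adjusted p = 1.28e-05) and *Ms4a1* by 2.19 ± 0.48 with 1 of 4 emodin arrays above background (adjusted p = 0.00164; -0.84 with normexp), while *Pax5* was below background on every array. In the B cell list 3 of 5 tested genes were lower with emodin than with IL4 and 1 higher (2 and 1 with normexp, all 5 lower with spike-in scaling). None was called with IL4 against control. Over all genes 65.9% were called with emodin against IL4 and 17.5% with IL4 against control. The summed signal of 9 T and NK cell markers was 6.38 to 8.74 with emodin, 3.51 to 4.95 with IL4 and 7.34 to 8.06 in controls, with *Cd3d*, *Cd3g*, *Cd8a* and *Ncr1* below background in each group. Of 4 tested T and NK cell genes 2 were lower with IL4 than in controls, *Cd3e* by -0.95 ± 0.25 (limma adjusted p = 0.0195) and *Cd28* by -0.91 ± 0.11 (adjusted p = 0.000122), and both were higher with emodin than with IL4 (1.03 and 0.75, but 0.09 and -0.20 with spike-in scaling and not called). The sum for 7 mesothelial and fibroblast markers was 10.8 to 39.3, 9.32 to 44.2 and 8.06 to 27.3 in these groups. Of these 7 markers 1, *Lrrn4*, was called higher with IL4 than in controls (2.42, limma adjusted p = 0.0265). It alone was called lower with emodin than with IL4 (-4.43, adjusted p = 0.000107; -2.23 with normexp), and 3 were lower with spike-in scaling. The part of these cells in the *Klf2* differences was not tested, and in such bulk RNA fewer cells of a type and less RNA per cell cannot be told apart.

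*Klf6* is a broadly expressed factor known to promote inflammatory gene expression in mouse macrophages. In the reported setting it was the member whose called fall with emodin relative to IL4 was smallest. Its values were 6.16, 6.03, 5.94 and 6.08 with IL4 plus emodin, 6.48, 6.33, 6.23 and 6.30 with IL4, and 6.59, 6.45, 6.31 and 6.61 in controls. Emodin arrays lay just below both other groups, whose values overlapped. The difference was -0.28 ± 0.09 against IL4 (SE, n = 4 per group; limma adjusted p = 0.0158), -0.44 ± 0.09 against control (adjusted p = 0.00113), and -0.16 ± 0.09 for IL4 against control, which was not called (95% interval -0.35 to 0.04; adjusted p = 0.271). Without IL4 array 1 the fall against IL4 alone was not called (-0.23, adjusted p = 0.052), and with quantile scaling it was -0.57 (adjusted p = 0.00211). With normexp it was -0.405, a larger fall than the called -0.316 of *Klf10*. With spike-in scaling it was -1.23, a larger fall than the called -0.80 of *Klf7*.

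*Klf7*, a factor studied mainly in the nervous system, was not called in any comparison. Its probe gave 2.45, 2.56, 2.24 and 2.63 with IL4 plus emodin, 2.52, 2.22, 2.20 and 2.36 with IL4, and 2.82, 2.19, 2.48 and 2.43 in controls, and all 3 groups overlapped. Differences were 0.15 for emodin against IL4 (95% interval -0.15 to 0.44; limma adjusted p = 0.353), -0.16 for IL4 against control (-0.45 to 0.14; adjusted p = 0.48) and -0.01 for emodin against control (-0.31 to 0.28; adjusted p = 0.944). With spike-in scaling it was called lower with emodin, by -0.80 against IL4 and -0.88 against control.

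*Klf3*, a repressor that recruits CtBP, fell with emodin about as far as *Klf4*. It measured 2.27, 1.88, 1.96 and 1.86 with IL4 plus emodin, 4.03, 3.78, 3.87 and 4.04 with IL4, and 3.93, 3.45, 3.49 and 3.53 in controls. The emodin arrays stood far below both other groups, and control array 1 stood within the IL4 range. Emodin lowered *Klf3* by -1.94 ± 0.13 relative to IL4 (SE, n = 4 per group; limma adjusted p = 1.16e-07), and the emodin arrays were lower than control by -1.61 ± 0.13 (adjusted p = 5.63e-07). IL4 against control gave 0.33 ± 0.13 (95% interval 0.05 to 0.60; adjusted p = 0.102). That difference was called once arrays were paired by replicate number (adjusted p = 0.0167), with normexp background correction (0.34, adjusted p = 0.0381) and without control array 1 (0.44, adjusted p = 0.0192).

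Of the group that recruits Sin3, *Klf9* followed IL4 most closely. *Klf9*, a factor inducible by glucocorticoids and thyroid hormone, gave 3.35, 3.44, 3.59 and 3.21 with IL4 plus emodin, 4.21, 4.27, 4.40 and 4.21 with IL4, and 3.08, 3.14, 3.31 and 3.09 in controls. Every IL4 array stood above every other array, and the emodin and control arrays overlapped. IL4 raised it by 1.12 ± 0.09 over control (SE, n = 4 per group; limma adjusted p = 6.27e-06), and emodin lowered it by -0.88 ± 0.09 relative to IL4 (adjusted p = 6.27e-06). Against control the emodin arrays were higher by 0.24 ± 0.09 (adjusted p = 0.0394), but not with quantile scaling (0.17, adjusted p = 0.103), not in any of 6 of the 8 fits that left out an array (all but control 3 and emodin 4; adjusted p = 0.0506 to 0.112), and lower with spike-in scaling (-0.62, adjusted p = 0.000227).

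*Klf13*, known as an activator of the chemokine gene CCL5 in human T cells, fell with emodin. Its values were 2.66, 2.29, 1.78 and 2.51 with IL4 plus emodin, 3.57, 3.26, 3.11 and 3.60 with IL4, and 3.52, 2.69, 2.77 and 3.12 in controls. Emodin arrays lay below both other groups, and the array numbered 1 was the highest of its group with emodin and in controls. The difference was -1.07 ± 0.22 against IL4 (SE, n = 4 per group; limma adjusted p = 0.00101) and -0.71 ± 0.22 against control (adjusted p = 0.0135). IL4 against control gave 0.36 ± 0.22 (95% interval -0.12 to 0.84; adjusted p = 0.305), which was called once arrays were paired by replicate number (adjusted p = 0.0371).

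*Klf11*, a repressor induced by TGF-beta, was well above background on 1 of 4 emodin arrays, number 1, and on all 8 others. It gave -3.63, -4.80, -4.78 and -4.32 with IL4 plus emodin, -3.05, -3.23, -3.53 and -3.23 with IL4, and -3.65, -3.55, -3.62 and -3.42 in controls. All emodin arrays were lower than every IL4 array and, apart from array 1, lower than every control. The fitted difference, whose size rests on emodin arrays that were mostly not above background, was -1.12 ± 0.22 against IL4 (SE, n = 4 per group; limma adjusted p = 0.000743) and -0.82 ± 0.22 against control (adjusted p = 0.00611), and IL4 against control was not called (0.30 ± 0.22, 95% interval -0.18 to 0.78; adjusted p = 0.405). With normexp background correction, which lifts dim signals, neither difference was called (-0.05, adjusted p = 0.553, and -0.02, adjusted p = 0.8).

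*Klf10*, first described as an early gene of TGF-beta signalling, was lower with emodin than in controls. Its probe gave 2.54, 2.22, 2.04 and 2.37 with IL4 plus emodin, 2.59, 2.64, 2.55 and 2.37 with IL4, and 2.72, 2.80, 2.97 and 2.71 in controls. All treated arrays lay below all controls, while the emodin and IL4 arrays overlapped. Emodin against control gave -0.51 ± 0.11 (SE, n = 4 per group; limma adjusted p = 0.00177). IL4 against control was not called (-0.26 ± 0.11, 95% interval -0.51 to -0.02; adjusted p = 0.135), though the arrays of these groups did not overlap, as for 24.9% of all genes. Emodin against IL4 missed the threshold (-0.24 ± 0.11, 95% interval -0.49 to -0.00; adjusted p = 0.0707) and was called without emodin array 1 (-0.33, adjusted p = 0.0186) or IL4 array 4 (-0.30, adjusted p = 0.0448). It was also called with normexp (-0.32, adjusted p = 0.0188) and with spike-in scaling (-1.19, adjusted p = 1.41e-06).

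**Figure D2:**
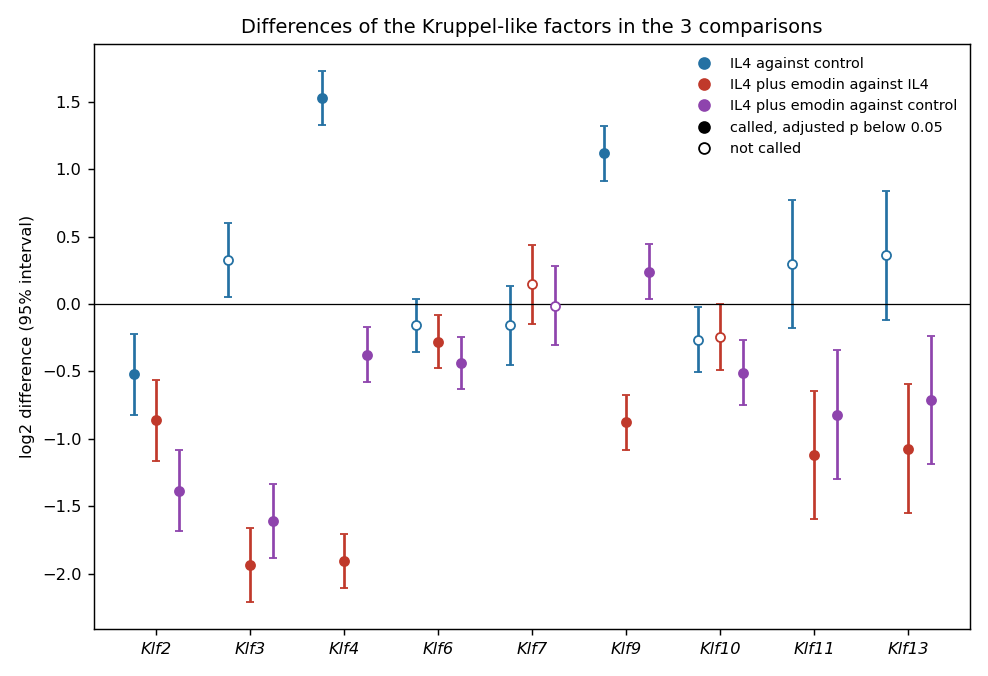
Log2 differences with 95% intervals (vertical axis) for the 9 Kruppel-like factors (horizontal axis) in the 3 comparisons, with filled points for calls at adjusted p below 0.05. *Klf4* and *Klf9* lie well above 0 for IL4 against control (1.53 and 1.12) and below 0 for IL4 plus emodin against IL4 (-1.91 and -0.88).

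The size of the emodin difference moved with the scaling of the arrays. Spike-in controls are RNAs meant to be added to each sample in a fixed amount, which the labels do not state. Spike-in signal, on a log2 scale, lay -0.05 to 0.13 from the 75th percentile with emodin, -1.11 to -0.80 from it with IL4 and -0.96 to -0.75 in controls. With spike-in scaling the median of all genes for emodin against IL4 was -0.78 in place of 0.17, and all 9 members were called lower. *Klf3* then differed by -2.88, *Klf4* by -2.85, *Klf11* by -2.07, *Klf13* by -2.02, *Klf9* by -1.82 and *Klf2* by -1.81. *Klf7* at -0.80 lay close to that median. Of all genes, 930 were then higher and 15530 lower with emodin than with IL4, in place of 8212 and 5538, and quantile scaling gave 6136 and 6448. Against control, emodin arrays had 7780 genes higher and 5345 lower, but 5589 and 6298 with quantile scaling and 1041 and 14941 with spike-in scaling. IL4 against control gave 1873 and 1786, and 1808 and 859 with spike-in scaling. With quantile scaling the median of emodin against IL4 was 0.02, and *Klf3* at -1.95 and *Klf4* at -1.88 stood near their values under the 75th percentile.

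**Figure D3:**
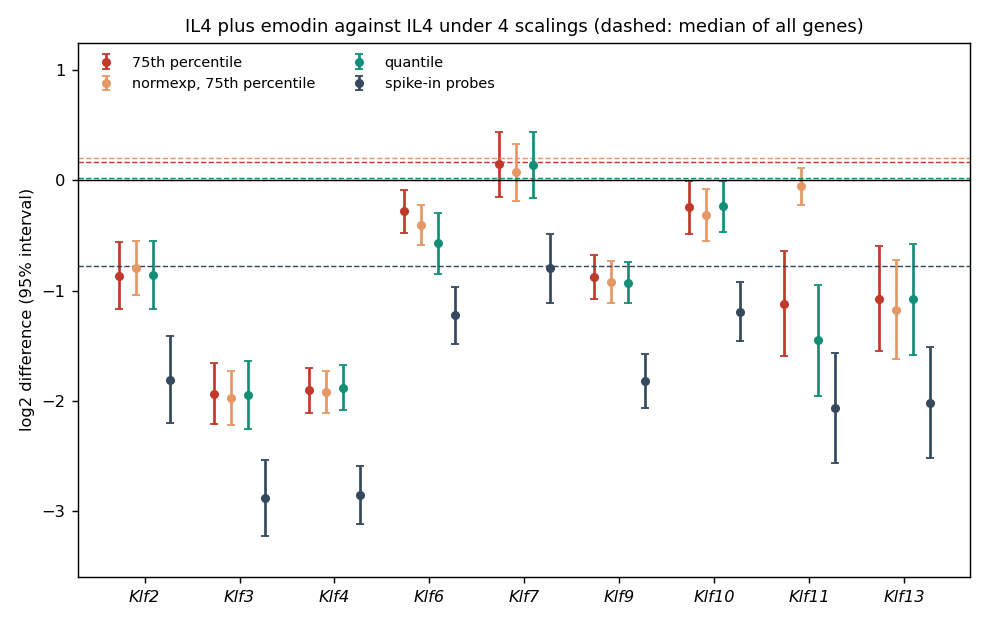
Log2 differences of IL4 plus emodin against IL4 with 95% intervals (vertical axis) for the 9 Kruppel-like factors under 4 ways of scaling the arrays, with the median of all genes under each scaling as a dashed line. *Klf3* and *Klf4* lie below the median of all genes under all 4, *Klf7* lies close to it, and *Klf11* is near 0 with normexp alone.

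Of 17 other KLF and SP genes, 8 had signal enough to be tested and 9 (*Klf1*, *Klf5*, *Klf12*, *Klf14*, *Klf15*, *Klf17*, *Sp5*, *Sp7* and *Sp9*) did not. With emodin against IL4, 3 of the 8 were lower and 1 higher (6 and none with spike-in scaling), where 65.9% of all genes were called. With IL4 against control 1 was lower and none higher, where 17.5% of all genes were called. *Klf8*, a CtBP-recruiting relative that KLF3 is known to repress in mouse cells, measured -1.85, -2.26, -2.01 and -2.19 with IL4 plus emodin, -0.24, -0.43, -0.35 and -0.44 with IL4, and 0.30, -0.03, 0.14 and -0.07 in controls. The 3 groups did not overlap. *Klf8* was lower by -1.71 ± 0.11 with emodin than with IL4 (limma adjusted p = 1.08e-07) and by -0.45 ± 0.11 with IL4 than in controls (adjusted p = 0.0143; not called with spike-in scaling, adjusted p = 0.103). *Klf16*, of the Sin3-recruiting group, fell by 0.76 ± 0.08 with emodin against IL4 (adjusted p = 5.25e-06), and *Sp8* fell by 0.84 ± 0.18 (adjusted p = 0.0015; -0.23 and not called with normexp). *Sp2* was higher by 0.51 ± 0.17 (adjusted p = 0.0193), but -0.44 with spike-in scaling. *Sp1*, the founding SP factor, was not called in any comparison, but was lower with emodin than with IL4 with normexp (-0.31, adjusted p = 0.0214) and with spike-in scaling (-1.18, adjusted p = 5.2e-06).

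**Figure D4:**
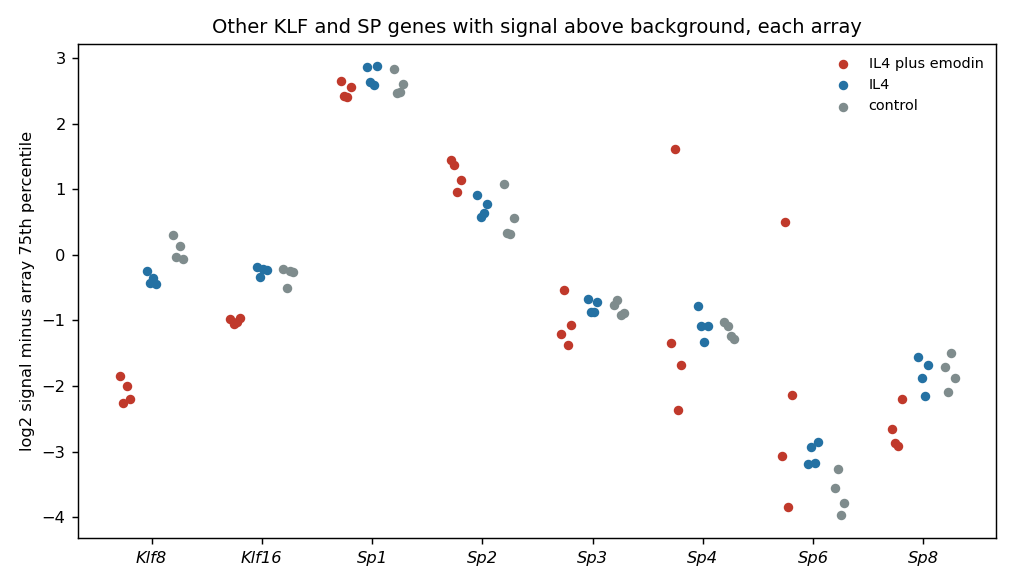
Log2 signal minus the 75th percentile of the array (vertical axis) on each array for the 8 other KLF and SP genes tested, to be compared between groups within a gene. *Klf8* and *Klf16* are lowest on the IL4 plus emodin arrays, and emodin array 2 stands apart for *Sp4* (1.61) and *Sp6* (0.51).

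Partners, regulators and targets of these factors were counted as lists. Their counts for emodin against IL4 are to be read against the 65.9% of all genes called there (39.4% higher and 26.5% lower). Those for IL4 against control are to be read against 17.5%. Of 13 corepressors and coactivators, 6 were lower and 4 higher with emodin against IL4 (none higher and 11 lower with spike-in scaling), and 1 was lower and none higher with IL4 against control. The falls with emodin were largest in *Kat2b*, an acetyltransferase (-1.83 ± 0.10, limma adjusted p = 3.13e-08), and *Hdac1*, the deacetylase of Sin3 complexes (-1.28 ± 0.08, adjusted p = 7.16e-08). *Sap30*, a Sin3 complex subunit, rose by 1.03 ± 0.11 (adjusted p = 4.82e-06; 0.09 with spike-in scaling). With IL4, *Ctbp2*, a partner of KLF3, fell by 0.45 ± 0.07 relative to control (adjusted p = 0.0011).

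Genes upstream of the family were also measured. Of 7 genes of the kinase and MEF2 pathway that drives *Klf2* and *Klf4* in endothelium, 3 were higher and 2 lower with emodin against IL4 (1 and 6 with spike-in scaling), with *Mef2d* higher by 1.69 ± 0.15 (limma adjusted p = 1.36e-06; 0.75 with spike-in scaling and 0.54 with normexp) and *Map2k5* lower by -0.64 ± 0.09 (adjusted p = 4.22e-05). With IL4 against control 1 of the 7 was higher and 1 lower. *Mef2a* was higher by 0.95 ± 0.18 (adjusted p = 0.00273), and the kinase gene *Mapk7* was lower (-0.35, adjusted p = 0.0352; not called with spike-in scaling, adjusted p = 0.247). Of 7 ubiquitin ligases known to act on KLF proteins, 4 were higher and 2 lower with emodin against IL4 (1 and 4 with spike-in scaling), led by *Wwp1*, which targets KLF2 for degradation, at 1.63 ± 0.13 (adjusted p = 6.25e-07; 0.69 with spike-in scaling).

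TGF-beta signalling, which induces *Klf10* and *Klf11*, was followed through 11 genes, of which 3 were higher and 2 lower with emodin against IL4 (2 and 9 with spike-in scaling). *Smad7*, an inhibitor of the pathway, rose by 1.91 ± 0.12 (limma adjusted p = 1.17e-07) and *Smad3*, a signal transducer, by 1.75 ± 0.17 (adjusted p = 2.94e-06), and both also lay above 0 with spike-in scaling (0.96 and 0.80). The receptor gene *Tgfbr1* fell by 1.00 ± 0.15 (adjusted p = 9.39e-05). Set beside *Klf9* was a list of 10 genes, made of glucocorticoid receptor targets and the receptor gene *Nr3c1* itself. In this list 2 were higher and none lower with IL4 against control, with *Fkbp5* higher by 0.91 ± 0.07 (adjusted p = 5.67e-06). With emodin against IL4, 3 of these 10 were higher and 4 lower (2 and 6 with spike-in scaling), with *Cebpd* lower by -1.77 ± 0.10 (adjusted p = 4.66e-08) and *Sgk1* higher by 1.27 ± 0.12 (adjusted p = 2.44e-06; 0.32 with spike-in scaling).

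Genes known as targets of KLF2 or KLF4 in other cells or in macrophages were followed as a list of 11. With IL4 against control 4 were higher and 2 lower, with a median log2 difference of 0.92, and with emodin against IL4 7 were lower and 1 higher (all 11 lower with spike-in scaling), with a median of -1.47. Over all genes these medians were -0.03 and 0.17. The 4 higher with IL4 were *Arg1*, *Chil3*, *Mrc1* and *Pparg*. These are alternative activation genes, so the count and median with IL4 cannot tell KLF action apart from the IL4 response. The same holds for emodin against IL4, where *Arg1* and *Mrc1* (-0.94, limma adjusted p = 0.00285) were among the 7 lower. *Arg1*, the arginase gene and a KLF4 target in macrophages, was higher by 6.91 ± 0.20 with IL4 than in controls (limma adjusted p = 7.45e-10) and fell by 2.70 ± 0.20 with emodin relative to IL4 (adjusted p = 2.64e-07). *Thbd*, the thrombomodulin gene that KLF2 activates in endothelium, measured lower by -2.66 ± 0.10 with emodin than with IL4 (limma adjusted p = 1.95e-09) and by -3.32 ± 0.10 than in controls (adjusted p = 5.21e-10). *S1pr1*, a KLF2 target in T cells, was lower by -1.90 ± 0.14 with IL4 than in controls (adjusted p = 2.01e-06). *Pparg*, placed on this list as an alternative activation gene, was higher with emodin than in controls by 1.73 ± 0.09 (adjusted p = 1.6e-08).

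Of 9 tested genes known as targets of the other members, 7 were higher and 1 lower with emodin against IL4, but 3 and 4 with spike-in scaling. *Cdkn1a*, which KLF6 is known to activate, rose by 1.60 ± 0.11 (limma adjusted p = 2.22e-07), *Plau* by 1.47 ± 0.17 (adjusted p = 1.19e-05) and *Ccl5* by 1.06 ± 0.32 (adjusted p = 0.0116), with values of 0.65, 0.52 and 0.11 with spike-in scaling. With IL4 against control, *Cdkn1a* alone of the 9 was called, higher by 0.79 ± 0.11 (adjusted p = 0.000447).

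Genes with the most similar profiles were found as the smallest Euclidean distance between 12 centred log2 values, over 13160 named genes outside the KLF family. The profile nearest to *Klf4* was that of *Jak2*, the kinase of cytokine receptors, at a distance of 0.33, with differences of 1.63 for IL4 against control and -2.00 for emodin against IL4. *Klf9* lay nearest to *Rrp8* (0.25), *Klf3* to *Gtf2ird2* (0.35) and *Klf13* to *Sh3pxd2b* (0.415). *Klf2* lay nearest to *Irak3*, an inhibitor of Toll-like receptor signalling, at 0.48, with -0.44 for IL4 against control and -0.79 for emodin against IL4. *Klf6* was nearest to *Atf2* (0.24), *Klf7* to *Vps13a* (0.32) and *Klf10* to *Dhx9* (0.35), and *Klf11* had the most distant nearest gene, *Mob3c* (0.70).

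The members' differences were also set side by side for arrays labelled male and female. *Klf4* rose by 1.53 with IL4 on male arrays and by 1.53 on female arrays, and fell by 1.91 with emodin on both. Other estimates lay further apart, such as *Klf2* for IL4 against control at -0.37 on male arrays and -0.67 on female arrays, and *Klf11* for emodin against control at -1.03 and -0.61. With 2 arrays of a sex per group, limma's interaction test called 0 of 20862 genes in each comparison, and the lowest unadjusted p of a member was 0.278, which does not show that the sexes respond alike. The sexes also differ in replicate number and slide column, which cannot be told apart from sex here.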

How the data were processed

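Cy3-labelled cRNA from each sample was hybridised to a one-colour Agilent mouse array. Per the file headers, the deposited spot intensity is background-subtracted, and per the submitters' processing notes the software was Agilent Feature Extraction 10.7.3.1. The authors' value table is on a log2 scale, set here against the scanner files: quantile normalization followed by centring each probe on its median gave a correlation of 1 on every array, so scale and direction are those of log2 signal. From the scanner files, control and outlier spots were left out, spots of a probe averaged, and the 75th percentile of each array subtracted from log2 intensity. A probe was kept if all 4 arrays of any group had it well above background (27705 of 55681), and the brightest probe stood for a gene. Symbols came from the RefSeq table (GRCm38.p6) through the transcript, for 27509 probes. No mean signal column was used for normexp; the median took its place.

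The model had a mean per group over 12 arrays (9 residual degrees of freedom; limma 3.58.1, R 4.3.3), with Benjamini-Hochberg adjustment over 20862 genes and calls at adjusted p below 0.05; 95% intervals are unadjusted. The fit was tested on simulated data. Precision is limited by 4 arrays a group. Members and lists were chosen with earlier results of these data known. Genes named from a list were among the 4 called with the largest difference in a comparison, except *Lyz2*, named to complete the called macrophage markers. Genes named as absent, not called or apart on 1 array were chosen after their values were seen. Of the 3 nearest profiles found for a member, the first is given. Same-numbered IL4 and control arrays deviated together (correlation 0.311 to 0.524 across genes), and each IL4 array correlated best with the control of its number. For emodin against IL4 (0.093 to 0.438) each emodin array also correlated best with its own number, weakly for number 2. Against control (0.056 to 0.515) emodin array 2 did not. Same-numbered arrays share sex and slide column, so pairing by mouse or culture cannot be told apart from these. Alternatives were other scalings, normexp with an offset of 50, the deposited table, other filters, the mean of probes, blocks, the compared groups alone and leaving out arrays. Some genes of the lists are counted but not reported by name here. Figures used matplotlib 3.10.9.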

Additional observations from a re-analysis of the deposited data

Results flagged for a closer look

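Among 27 groups of 4 arrays, 2 held an array far from the other 3 by Dixon's criterion for 4 samples, and chance flags about 1 in 20 groups. For *Klf3*, control array 1 measured 3.93, with the other controls at 3.45 to 3.53. For *Klf4*, IL4 array 1 measured 3.38, with the other IL4 arrays at 3.20 to 3.23.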

How the results depend on the processing

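Over all alternatives, member differences kept direction and call in 474 cases, lost the call in 19, gained one in 11 and reversed in 6. With the replicate number as a block, which pairs IL4 and control arrays, 4 members were called higher with IL4 in place of 2, and 25.4% of all genes were called in place of 17.5%; the block changed no other member call. For emodin against IL4, where the correlation of number 2 was 0.093, the block called 15096 genes in place of 13750. The 1 member called higher with emodin than in controls, *Klf9*, fell out (0 members) with quantile scaling, the deposited table, both spike-in scalings, no filter and the compared groups alone. Leaving out single arrays gave 0 to 1 there, and 0 to 1 for members lower with IL4, which also became 0 with both spike-in scalings. *Klf7* turned to -0.80 and -0.93 for emodin against IL4, and *Klf9* to -0.62 and -0.71 for emodin against control, with all spike-in spots and with the 222 spots above background (an alternative chosen after seeing the data). *Klf7* for emodin against control, not called, was -0.11 to 0.10 when single arrays were left out, and above 0 without control array 1 and without emodin array 3 (0.06). The cause of these changes was not tested. For IL4 against control, normexp called 5546 genes, no filter 7321 of 37018, and the reported setting 3659; no filter called 17155 higher with emodin than with IL4. Dim *Klf11* is limited by signal over background.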
